A study of Mus musculus with 19 samples.

Results

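The thrombospondins are a family of 5 secreted, calcium-binding glycoproteins of the extracellular matrix, and all 5 genes, Thbs1, Thbs2, Thbs3, Thbs4 and Comp, were followed here through RNA-seq of 19 mouse mammary glands and tumors. The members were taken by gene symbol from a table of 46078 genes, so the family is 5 of 46078. The family was chosen by measured values as well as by name, because a difference in normalized counts was already known for 2 members, namely a higher Thbs4 level in MGNP than in MGN and a higher Comp level in TN than in MGN, and these values are therefore given as a description with no test.

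The mice carried MMTV-neu, which drives the rat form of ErbB2 in mammary epithelium, and in the NP mice Fsp-Cre switched the p53wm-R172H allele from wild-type to mutant p53 in fibroblasts. Tumors without mutant p53 (TN, n = 4) came from MMTV-neu;Fsp-Cre mice, and tumors with it (TNP, n = 4) from MMTV-neu;Fsp-Cre;p53wm-R172H/+ mice. Glands without malignant lesions were taken from tumor-bearing mice of the same kinds (MGN and MGNP, n = 4 each) and from wild-type mice (MGWT, n = 3). MGN mixed genotypes: replicate 1 was MMTV-neu;Fsp-Cre and replicates 2 to 4 were MMTV-neu;p53wm-R172H/+ without Cre, whereas all TN mice carried Fsp-Cre without the p53wm-R172H allele. The mice other than wild type were of a mixed FVB/C57/BALB/c background, and their ages are not given in the labels. The names of TNP replicates 1 and 2 share an animal number, so these may not be independent, and no call of a member changed when they were averaged. All samples were whole tissue, in which fewer cells of a type and less RNA per cell cannot be told apart.

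Thrombospondins do not build the matrix so much as tune it. Thbs1 and Thbs2 form trimers, bind CD36 and CD47, restrain the growth of blood vessels and, in the case of Thbs1, can activate latent TGF-beta. Thbs3, Thbs4 and Comp form pentamers, lack the part that carries the anti-angiogenic repeats, and are best known from cartilage, tendon, muscle and heart, where Comp helps to assemble collagen fibrils.

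In GRCm38 with GENCODE vM21, all members are protein-coding. Thbs1 (ENSMUSG00000040152) lies on chromosome 2 from 118111876 to 118127133 on the plus strand, and Thbs2 (ENSMUSG00000023885) on chromosome 17 from 14665500 to 14694235 on the minus strand. Thbs3 (ENSMUSG00000028047) lies on chromosome 3 from 89215180 to 89226837 on the plus strand, Thbs4 (ENSMUSG00000021702) on chromosome 13 from 92751590 to 92794818 on the minus strand, and Comp (ENSMUSG00000031849) on chromosome 8 from 70373558 to 70382066 on the plus strand. Exons of Thbs3 share bases with Mtx1, a mitochondrial import gene on the opposite strand, so without strand-aware counting part of the Thbs3 signal could belong to Mtx1. Mtx1 had 403 to 1214 normalized counts, with every tumor (690.5 to 1214) above the median of the MGN and MGNP glands (573), and its part in the Thbs3 values was not tested. Thbs1 overlaps the lincRNA Gm29233, which had at most 3.76 normalized counts.

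The 250 bases before the RefSeq gene start are printed for the 3 members found in the RefSeq promoter table (GRCm38.p6), to show the sequence before members whose tumor and gland levels differed in different directions (Thbs3 lower and Thbs4 higher in TN than in MGN). Capitals mark matches, on either strand, to the TATA box (TATAAA), the GC box (GGGCGG), the AP-1 site (TGANTCA), the E-box (CANNTG), the MEF2 site and the CArG box. No match overlapped another motif's match. The RefSeq start of Thbs2 lies upstream of the GENCODE gene given above, with a short gap between the window and that gene, and the bases after this start were not found in the GENCODE transcripts, unlike those of Thbs3 and Thbs4.
Thbs2, chr17:14694263-14694512, minus strand: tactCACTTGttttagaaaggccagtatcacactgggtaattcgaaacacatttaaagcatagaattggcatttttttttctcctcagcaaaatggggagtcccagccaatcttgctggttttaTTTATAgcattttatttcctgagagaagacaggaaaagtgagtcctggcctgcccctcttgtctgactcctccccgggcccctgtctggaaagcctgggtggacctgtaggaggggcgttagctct
Thbs3, chr3:89214930-89215179, plus strand: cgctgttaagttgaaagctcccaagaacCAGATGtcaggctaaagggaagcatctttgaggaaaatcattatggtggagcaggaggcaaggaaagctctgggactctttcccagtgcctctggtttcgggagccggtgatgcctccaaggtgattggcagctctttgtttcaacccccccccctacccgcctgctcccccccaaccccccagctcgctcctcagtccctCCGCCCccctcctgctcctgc
Thbs4, chr13:92794819-92795068, minus strand: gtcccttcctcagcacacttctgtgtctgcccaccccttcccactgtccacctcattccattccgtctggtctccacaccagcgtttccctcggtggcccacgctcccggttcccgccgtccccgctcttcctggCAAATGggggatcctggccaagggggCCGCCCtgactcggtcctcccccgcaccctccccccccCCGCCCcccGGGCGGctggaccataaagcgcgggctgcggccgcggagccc
Thbs4 had 3 GC boxes and Thbs3 had 1, against none in Thbs2, and a GC box is found in 32.7% of the 32851 promoter windows of the same length. Only Thbs2 of the 3 had a match to the TATA box letters, and it lies on the strand opposite to the gene (TTTATA as printed). This match starts 126 bases before the RefSeq start of Thbs2, and the motif is present in 12.4% of windows. Each of the 3 windows had 1 E-box, a motif found in 66.2% of windows. None held an AP-1 site (6.75% of windows), an MEF2 site (0.508%) or a CArG box (1.47%). G and C made up 70.8% of the Thbs4 window, 58.8% of the Thbs3 window and 46.8% of the Thbs2 window. The windows of Thbs1 and Comp are not given here.

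Values are normalized counts, that is reads divided by a size factor for each library. The 16 libraries other than MGWT held 20899152 to 27262440 reads and the MGWT libraries 54677315 to 62645459. A change was called when limma's adjusted p over all genes tested was below 0.05 and the change was at least 2-fold, and all 5 members passed the filter on low values in every comparison. Trp53 had 1243 to 2297 normalized counts in MGWT against 483 to 1135 in MGN and MGNP glands and was not called between the N and NP groups, and Erbb2 was 73426 to 155042 in tumors against 1845 to 14718 in MGN and MGNP glands. The MGWT libraries stood apart in more than depth. Immediate-early genes took 1.30 to 1.70% of their normalized counts against 0.0117 to 0.0397% elsewhere, and white adipocyte markers 0.0142 to 0.0204% against 0.481 to 1.70% in MGN and MGNP, so genotype and these differences cannot be told apart in any comparison with MGWT.

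**Figure D1:**
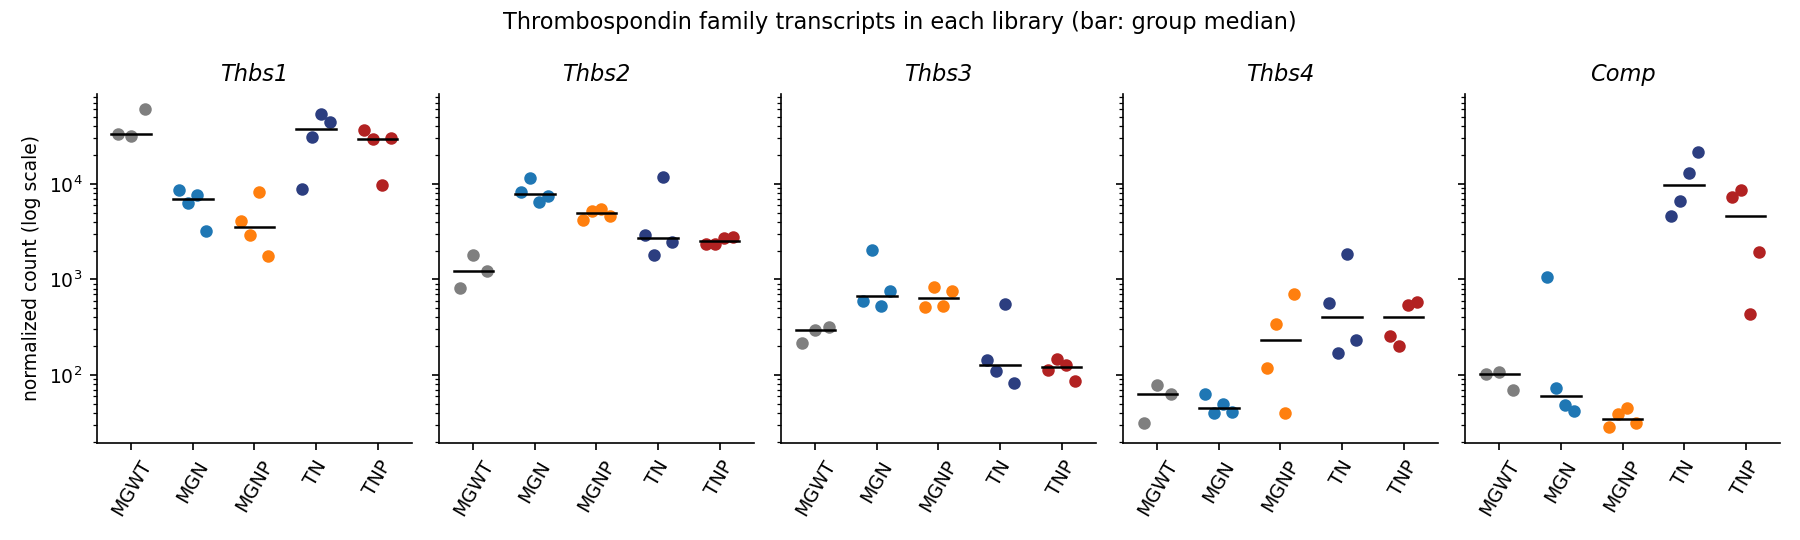
Normalized counts of the 5 family members in 19 libraries on a log axis, 1 panel per gene, with a point for each library and a bar at the group median. Comp spans 28.6 to 21462 counts, with the 8 tumors at 435 or more, and the Thbs1 medians of MGN (6927) and MGNP (3491) lie below those of the other groups (29673 or more).

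Compared per kilobase of exon, Thbs1 was the leading member in all MGWT glands and in 7 of 8 tumors, and Thbs1 and Thbs2 each led in 4 of the 8 MGN and MGNP glands. It made up 93.3 to 97.2% of the family total per kilobase in MGWT, 39.6 to 79.9% in the 8 tumors and 21.7 to 59.7% in MGN and MGNP. Thbs2 held 34.3 to 60.1% in MGN and MGNP but 2.33 to 16.8% in tumors. Comp led in TN replicate 1 and was second in 6 other tumors, at 28.3 to 48.5% in TN and 6.36 to 35.4% in TNP, and was at most 0.859% in glands except MGN replicate 1, where it was 11.5%. Thbs3 and Thbs4 stayed minor in tumors, at no more than 1.13% and 7.16%, and Thbs4 reached its highest share, 16.1%, in MGNP replicate 4.

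**Figure D2:**
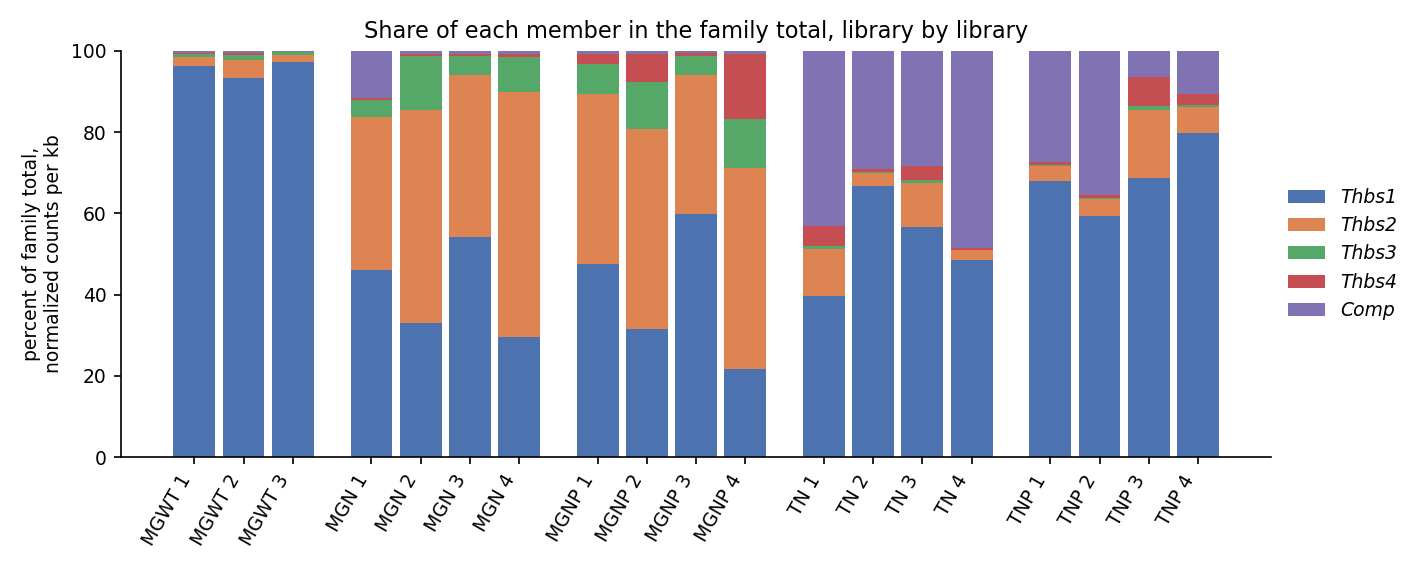
Stacked bars of each member's percent of the family total in normalized counts per kilobase of exon, 1 bar per library, grouped as MGWT, MGN, MGNP, TN and TNP. Thbs1 fills 93.3% or more of every MGWT bar, Thbs2 34.3% or more of every MGN and MGNP bar, and Comp 6.36 to 48.5% of the tumor bars.

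Thbs1, the archetypal anti-angiogenic member and activator of TGF-beta, was low in the glands of tumor-bearing mice and high in tumors. It had 8718, 30790.5, 53407 and 44022 normalized counts in TN against 8628, 6225, 7630.3 and 3205 in MGN. It had 36941, 29333, 9604 and 30013 in TNP against 4083, 2899, 8283 and 1733 in MGNP. In both comparisons every tumor exceeded every gland, although TN replicate 1 and TNP replicate 3 lay just above the highest gland of their comparison. The log2 fold change was 2.23 (SE 0.56, adjusted p = 0.0105, limma) for TN against MGN and 2.71 (SE 0.55, adjusted p = 0.00318) for TNP against MGNP. With the muscle marker level (mean log2 of the skeletal muscle markers) as a covariate the second value was 0.99 and not called. That level was 9.22 to 17.2 in MGNP, 3.67 to 8.72 in TNP and 3.65 to 3.91 in MGWT. The MGNP range overlaps neither of the others, so covariate and group cannot be told apart in TNP against MGNP or MGNP against MGWT. MGWT replicates 1 and 2, at 32803 and 31642, were in the range of the tumors (8718 to 53407). MGWT replicate 3, at 60073, was above every tumor. Thbs1 was lower than in MGWT in MGN, with a log2 fold change of -2.72 (SE 0.37, adjusted p = 0.000416), and in MGNP, with -3.46 (SE 0.51, adjusted p = 0.00192), with no overlap of the groups. With the muscle covariate the MGNP value was -0.92 and not called. TN and TNP did not differ from MGWT past the threshold (log2 fold changes -0.49, SE 0.61, and -0.75, SE 0.46). In order of the medians, TN (37407), MGWT (32803) and TNP (29673) overlapped as neighbours, TNP and MGN (6927) did not, and MGN and MGNP (3491) did. Luminal epithelium markers took 0.327 to 0.370% of normalized counts in MGWT, 0.360 to 0.677% in tumors and 0.0270 to 0.121% in MGN and MGNP. Basal epithelium markers took 0.201 to 0.237%, 0.00483 to 0.0175% and 0.0236 to 0.0878% in the same order. The part of epithelial content in the Thbs1 values was not tested.

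Thbs2, the other trimeric inhibitor of vessel growth and a regulator of fibril assembly, was higher in the glands of tumor-bearing mice than in MGWT glands. It had 8122, 11417, 6491 and 7487 normalized counts in MGN and 4152, 5213, 5484 and 4565 in MGNP. It had 2929, 1794, 11685 and 2432 in TN, 2345, 2349.5, 2707 and 2783 in TNP, and 818, 1787 and 1222 in MGWT. The highest library of all was TN replicate 3, while the other 3 TN tumors were below every gland of tumor-bearing mice. Against MGWT, Thbs2 rose in MGN by a log2 fold change of 2.75 (SE 0.28, adjusted p = 9.77e-05), in MGNP by 1.99 (SE 0.26, adjusted p = 0.00115) and in TNP by 1.06 (SE 0.23, adjusted p = 0.0034), the last being 0.78 and not called without MGWT replicate 1. TN against MGWT was 1.53 (SE 0.61, adjusted p = 0.0642), and 1.94 and called by edgeR. TNP lay below MGNP in every library, with a log2 fold change of -0.93 (SE 0.13, adjusted p = 0.000517), which passed on p and fell short of 2-fold. The TN against MGN change was -1.23 (SE 0.52, adjusted p = 0.0786), and it was -1.81 and called without TN replicate 3, the library in which fibroblast markers were highest among tumors (0.983% of normalized counts against 0.105 to 0.206% in the other 7). The part of those fibroblast markers in the Thbs2 value was not tested. In order of the medians, MGN (7805) and MGNP (4889) did not overlap, MGNP overlapped TN (2681), TN overlapped TNP (2528), and TNP did not overlap MGWT (1222).

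Thbs3, a pentameric member expressed in developing bone and cartilage, was like Thbs2 higher in the glands of tumor-bearing mice than in MGWT, but unlike Thbs2 it was lower in TNP than in MGWT. It had 599, 2012, 521 and 753 normalized counts in MGN and 515, 832, 529.6 and 757 in MGNP. In TN it had 144, 109, 545 and 81.7, in TNP 113, 145, 126 and 86.2, and in MGWT 216, 294 and 317. TN replicate 3 again stood with the glands, and the other 7 tumors were lower than every gland of any group. The log2 fold change was -2.34 (SE 0.63, adjusted p = 0.0139) for TN against MGN and -2.47 (SE 0.24, adjusted p = 8.14e-05) for TNP against MGNP. It was 1.60 (SE 0.43, adjusted p = 0.0128) for MGN against MGWT and 1.24 (SE 0.24, adjusted p = 0.00556) for MGNP against MGWT, the latter not called with all 5 groups in 1 fit or, at 0.44, with the muscle covariate. TNP was below MGWT, at -1.23 (SE 0.24, adjusted p = 0.00183), and TN was not called (-0.74, SE 0.61) but was at -1.32 and called without TN replicate 3. The rise in MGN was no longer called without MGWT replicate 1, at 1.44. MGN (median 676) overlapped MGNP (643), MGNP did not overlap MGWT (294), and MGWT, TN (126) and TNP (119.6) overlapped as neighbours.

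Thbs4, known from tendon, muscle and heart and from remodelling matrix, was higher in tumors than in MGN or MGWT glands, and in MGNP glands the ratio of the highest to the lowest replicate (17.4) was larger than in any other group. Tumors had 571, 169.6, 1836 and 231 normalized counts in TN and 258, 200.1, 543 and 584 in TNP. Glands had 31.6, 78.6 and 62.5 in MGWT and 63.7, 40.2, 49.8 and 41.2 in MGN. Every tumor thus exceeded every MGWT and MGN gland. The log2 fold change was 3.04 (SE 0.79, adjusted p = 0.0125) for TN against MGWT, 2.71 (SE 0.46, adjusted p = 0.000813) for TNP against MGWT and 3.21 (SE 0.67, adjusted p = 0.00435) for TN against MGN. The first of these was 2.67 and not called without MGWT replicate 1.

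MGNP replicates 1 to 4 had 118, 343, 40.1 and 697 Thbs4 normalized counts. Replicates 1, 2 and 4 were above all MGN glands and replicate 3 was level with the lowest of them, and the log2 fold change known beforehand was 1.92 (SE 0.78). The 16 skeletal muscle markers took 3.44, 18.7, 0.124 and 10.7% of normalized counts in the same 4 libraries, against 0.0171 to 0.184% in MGN and 0.00345 to 0.00656% in MGWT. The replicate with the lowest muscle marker share also had the lowest Thbs4, while of the other 3 the highest Thbs4 was in replicate 4 and the highest muscle share in replicate 2. With the mean muscle marker level as a covariate, the MGNP against MGN change of Thbs4 was -0.08. That level was 14.4 or more in MGNP replicates 1, 2 and 4, above every MGN gland. Only MGNP replicate 3, at 9.22, lay within the MGN range. The adjusted value therefore rests on that library, and covariate and group can hardly be told apart here. Without the covariate and without MGNP replicate 3 the change was 2.65. Tumors had Thbs4 at 169.6 or more with muscle markers at 0.00222 to 0.191%. Muscle shares of 3.44% or more were found only in MGNP replicates 1, 2 and 4, and the part of muscle tissue in the Thbs4 values was not tested. TNP against MGNP was 0.95 (SE 0.82, adjusted p = 0.346), the groups overlapped, and with the muscle covariate it was 3.85 and called. MGNP against MGWT was 1.76 (SE 0.92, adjusted p = 0.153), and -3.03 with the muscle covariate, while it was 2.42 and called by DESeq2 and 2.48 and called without MGNP replicate 3. In both comparisons the muscle covariate and the group cannot be told apart, as given above for Thbs1. Both comparisons share the MGNP libraries of the known difference, and TN against MGN shares its MGN libraries. The tendon markers Scx, Tnmd, Mkx, Fmod and Kera took 0.000491 to 0.00196% in MGNP, within or close to the range in MGN (0.000724 to 0.00164%). By medians, TN (401), TNP (400.4), MGNP (230.4), MGWT (62.5) and MGN (45.5) overlapped at each step.

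**Figure D3:**
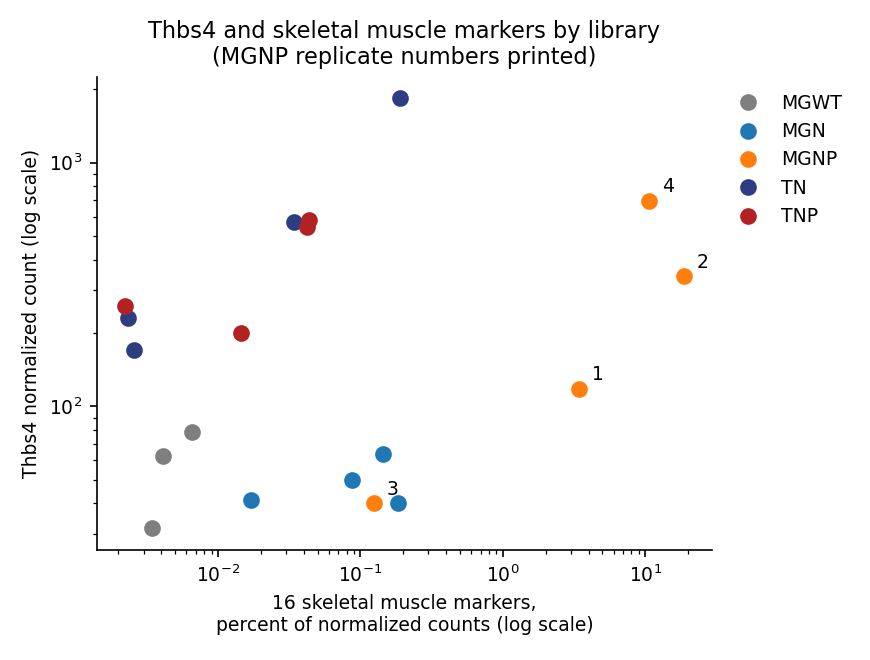
Thbs4 normalized count against the summed share of 16 skeletal muscle markers in each of 19 libraries, both on log axes, coloured by group and with MGNP replicate numbers printed. MGNP replicates 1, 2 and 4 lie at 3.44% or more muscle markers and 118 or more counts, MGNP replicate 3 sits among the MGN glands, and the tumors have 169.6 or more counts at 0.191% or less.

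Comp, the cartilage oligomeric matrix protein, showed the widest range of the family. It had 4653, 6562, 13064 and 21462 normalized counts in TN and 7264, 8545, 435 and 1940.2 in TNP. Glands had 101, 108 and 69.2 in MGWT, 1055, 73.6, 47.9 and 42.2 in MGN and 28.6, 38.5, 45.5 and 31.0 in MGNP. Every TN tumor exceeded every gland, and so did every TNP tumor except replicate 3, which was below MGN replicate 1 alone. The TN against MGN change known beforehand was 6.40 on the log2 scale (SE 0.99). TNP against MGNP, which shares no library with it, gave a log2 fold change of 6.21 (SE 0.85, adjusted p = 0.000426), or 74.1-fold, and it was 7.09 without TNP replicate 3 and 4.64 with the muscle covariate, called in both. Against MGWT it was 6.71 (SE 0.50, adjusted p = 6.14e-05) for TN, with the same TN libraries as the known difference, and 4.87 (SE 0.92, adjusted p = 0.00152) for TNP. In the other direction, MGNP glands were below MGWT glands with a log2 fold change of -1.34 (SE 0.29, adjusted p = 0.00811), a call lost with all 5 groups in 1 fit and, at -1.28, with the replicate number as a block, or at -0.86 with the muscle covariate. MGN glands were not called against MGWT, at 0.30 (SE 1.03), and without MGN replicate 1 the value was -0.77.

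MGN replicate 1, with 1055 Comp normalized counts against 42.2 to 73.6 in the other MGN glands, was the only MGN library of the Fsp-Cre genotype. In the same library Col9a1 was 3766 normalized counts against 63.2 to 224 in the other MGN glands, and Erbb2 was 14718 against 1845 to 9610.0. The part of these in its Comp level was not tested. The medians of Comp fell in the order TN (9813), TNP (4602), MGWT (101), MGN (60.7) and MGNP (34.8), in which TNP and MGWT did not overlap and the other neighbours did.

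**Figure D4:**
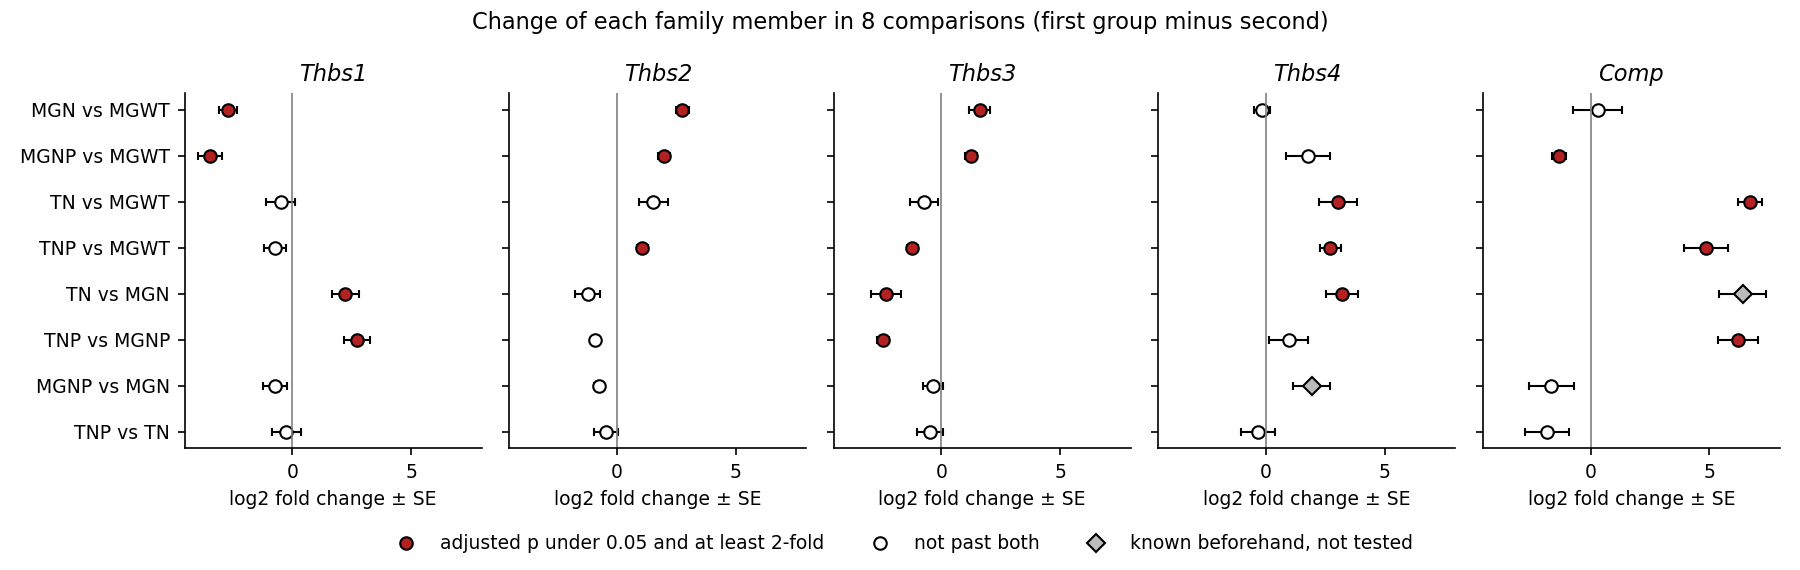
Log2 fold change with its standard error for each family member in 8 comparisons, first group minus second. Filled circles are called, open circles are not, and the 2 grey diamonds (Comp for TN against MGN, 6.40, and Thbs4 for MGNP against MGN, 1.92) were known beforehand and not tested.

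Counted over the family, 3 of the 4 members tested were called for TN against MGN beside the known Comp, where 35.1% of all genes were called, 12.8% higher and 22.3% lower. Thbs1 and Thbs4 were higher and Thbs3 was lower. For TNP against MGNP 3 of 5 were called, Thbs1 and Comp higher and Thbs3 lower, where 38.7% of all genes were called, 14.7% higher and 24.0% lower. For MGN against MGWT 2 were higher and 1 lower, where 37.0% of all genes were called, 19.1% higher and 17.9% lower. For MGNP against MGWT 2 were higher and 2 lower, where 32.6% were called, 16.4% higher and 16.2% lower. For TN against MGWT 2 were higher and 0 lower, where 42.5% were called, 17.4% higher and 25.0% lower. For TNP against MGWT 3 were higher and 1 lower, where 47.8% were called, 19.8% higher and 28.0% lower. Of the calls counted, Thbs4 in TN against MGN and Comp in TN against MGWT share libraries with the known differences.

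Beside the known Comp, groups did not overlap for 2 of the 4 members tested in TN against MGN, Thbs1 and Thbs4, both higher (22.7% of all genes, with 26.4% lower and 49.2% either way). They did not overlap for 4 in TNP against MGNP, 2 higher (25.2%) and 2 lower (27.4%, and 52.6% either way). Against MGWT they did not overlap for 3 members in MGN, 2 higher (31.5%) and 1 lower (29.8%, and 61.3% either way), and for 4 in MGNP, 2 higher (26.5%) and 2 lower (27.9%, and 54.4% either way). They did not overlap for 3 in TN, all higher (28.3%, with 32.4% lower and 60.7% either way), and for 4 in TNP, 3 higher (32.8%) and 1 lower (37.2%, and 69.9% either way). Thbs4 in TN against MGN and Comp in TN against MGWT, which share libraries with the known differences, are counted here too. With 5 members, these counts do not stand far from the shares over all genes. The median log2 fold change of the 5 members was 0.95 for TNP against MGNP, beside -0.07 over all genes. That median is the value of Thbs4, which was not called and shares its MGNP libraries with the known difference. The members went both ways, from -2.47 for Thbs3 to 6.21 for Comp, so it does not show a rise of the family.

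Mutant p53 in fibroblasts was compared within glands and within tumors. Between MGNP and MGN limma called none of the 4 members tested (0% of all genes were called), and 1 had an unadjusted p below 0.05. Neither edgeR nor DESeq2 called any of the 4, where of 18563 genes edgeR called 0 and DESeq2 519. The member with the small unadjusted p was Thbs2, which was lower in every MGNP gland than in every MGN gland (4.15% of all genes were lower without overlap, 2.06% higher and 6.21% either way), with a log2 fold change of -0.76 (SE 0.19, adjusted p = 0.319). Thbs1 was -0.74 (SE 0.49), Thbs3 -0.36 (SE 0.41) and Comp -1.64 (SE 0.94), and Comp was -0.57 without MGN replicate 1. Fibroblast markers took 0.240 to 0.671% of normalized counts in MGNP against 0.559 to 1.89% in MGN, and their part in the Thbs2 value was not tested. Between TNP and TN, 0 of 5 members were called by limma, edgeR or DESeq2 (0.0421% of all genes were called by limma, 0.0361% higher and 0.00601% lower) and 0 had an unadjusted p below 0.05. In that comparison edgeR called 0 and DESeq2 85 of 16638 genes. The largest difference there was that of Comp, at -1.84 (SE 0.92, adjusted p = 0.702) and from -2.39 to -0.96 when 1 library was left out (the latter without TNP replicate 3), with groups that overlapped, as they did for all 5 members (4.21% of all genes did not overlap, 2.64% higher and 1.57% lower). In the test of whether the tumor against gland change differed between NP and N mice, 0 of 5 were called by any of the 3 tools (0% of all genes by limma, and of 19367 genes 0 by edgeR and 327 by DESeq2). Thbs4 came nearest, at -2.25 (SE 1.13, adjusted p = 0.653). The interaction values of Thbs4 and of Comp each hold a known difference within them. The Comp values of MGNP against MGN and of TNP against TN also share libraries with its known difference, MGN and TN.

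Thrombospondins act through cell-surface receptors, and 15 receptor genes were measured beside them. For TN against MGN 5 were called higher and 7 lower, where 12.8% and 22.3% of all genes were, and for TNP against MGNP 4 higher and 6 lower, where 14.7% and 24.0% were. Cd36, the scavenger receptor and fatty acid transporter bound by Thbs1 and Thbs2, fell with log2 fold changes of -4.26 (SE 1.23, adjusted p = 0.0189) and -3.36 (SE 0.70, adjusted p = 0.00386). Its levels were 217 to 25896 normalized counts in TN and 952 to 10182 in TNP, against 48547 to 91295 in MGN and 24028 to 67264 in MGNP, and white adipocyte markers, to whose cells Cd36 also belongs, were 0.00587 to 0.0333% in tumors. Cacna2d1, the calcium channel subunit through which thrombospondins promote synapses, fell by 2.94 (SE 0.37, adjusted p = 0.00042) and 4.82 (SE 0.77, adjusted p = 0.000989) on the log2 scale. Muscle cells use it too, and it reached 8276 normalized counts in MGNP against at most 1318 in MGN. Lrp1, the endocytic receptor that clears thrombospondins, was at -2.77 in TN against MGN (SE 0.40, adjusted p = 0.000774) and -2.55 in TNP against MGNP (SE 0.19, adjusted p = 2.58e-05). The integrin subunit Itga4 was at -2.70 (SE 0.46, adjusted p = 0.00161) and -3.25 (SE 0.47, adjusted p = 0.000606) in the same order. The receptors called higher in both comparisons were Itgb3, Itga6, Calr and Sdc4, with log2 fold changes of 1.35 to 2.37. For MGN against MGWT 4 receptors were higher and 5 lower (19.1% and 17.9% of all genes), led by Cd36 (4.13, SE 0.22), the leukocyte integrin Itgam (3.08, SE 0.43) and Itga3 (-2.29, SE 0.14). None of the 15 was called between MGNP and MGN, between TNP and TN, or in the test of the difference. The shares of all genes called were 0%, 0.0421% and 0% in that order, so these counts do not set the receptors apart.

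Among 16 other matricellular genes, those whose products modulate the matrix as thrombospondins do, 14 were tested from gland to tumor. For TN against MGN 3 were higher and 6 lower, where over all genes 12.8% were higher and 22.3% lower, and for TNP against MGNP 2 were higher and 6 lower, against 14.7% and 24.0%. Tnxb, the tenascin of loose connective tissue, fell most, with log2 fold changes of -4.70 (SE 1.04, adjusted p = 0.00555) and -4.02 (SE 0.22, adjusted p = 7.95e-06). Smoc1 fell in both, with -2.87 in TN (SE 0.76, adjusted p = 0.0132) and -1.44 in TNP (SE 0.54, adjusted p = 0.0469). So did Fbln1, a basement membrane protein, with -2.32 in TN (SE 0.60, adjusted p = 0.0117) and -2.64 in TNP (SE 0.25, adjusted p = 6.65e-05). Spp1, osteopontin, rose in TN by 4.74 (SE 1.07, adjusted p = 0.00615), from 215 to 5725 normalized counts in MGN to 6414 to 44900 in TN, and its change in TNP against MGNP was 1.90 (SE 1.04, adjusted p = 0.148). Wisp1, a CCN family member, rose in TNP by 2.95 (SE 0.38, adjusted p = 0.000314) and in TN by 2.10 (SE 0.71, adjusted p = 0.0352). For MGN against MGWT 6 were higher and 2 lower of 15 tested, against 19.1% and 17.9% of all genes. The 2 that were lower, Cyr61 (-4.48, SE 0.48) and Ctgf (-2.55, SE 0.48), are like Thbs1 early growth-factor response genes, and their fall stood beside that of the immediate-early genes given above, all 11 of which were called lower in MGN than in MGWT. The part of that response in the Thbs1 value was not tested.

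Comp binds collagens II and IX, and cartilage matrix genes rose with it in tumors. This list was chosen with the rise of Col9a1, Col11a1 and Comp in TN known. Its count for TN against MGN holds Col9a1 and Col11a1 and is therefore a description. Of 15 genes, 10 were tested in each comparison, and 7 were higher and 0 lower for TN against MGN (12.8% and 22.3% of all genes), 7 higher and 2 lower for TNP against MGNP (14.7% and 24.0%). Col9a1, a chain of the fibril-associated collagen IX, was 30883 to 61620.1 normalized counts in TNP against 91.7 to 1330.1 in MGNP, a log2 fold change of 6.59 (SE 0.72, adjusted p = 0.000138). Col11a1, a collagen XI chain, rose by 6.74 (SE 0.67, adjusted p = 8.98e-05) and Col9a2 by 4.07 (SE 0.51, adjusted p = 0.000288) in the same comparison. Col9a2 also rose in TN against MGN, by 3.54 (SE 0.59, adjusted p = 0.00146). Col10a1, the collagen of hypertrophic cartilage, rose in TN by 4.80 (SE 0.52, adjusted p = 0.000212) to 32.9 to 75.9 normalized counts. It was at 0 to 2.55 in MGN, near the floor, and passed the filter in this comparison through the TN libraries alone. In TNP against MGNP it rose by 3.71 (SE 0.75, adjusted p = 0.00322), at 20.7 to 66.1 normalized counts against 0 to 11.6. There the TNP libraries were enough for it to pass the filter. The defining cartilage genes were scarce. Col2a1 was at most 99.2 normalized counts in any tumor. It was called higher in TNP than in MGNP by limma (2.87, SE 0.32, adjusted p = 0.000161). Its level was 20.2 to 36.4 normalized counts in TNP against 2.17 to 4.28 in MGNP, so it passed the filter there through TNP alone. The 7 genes called higher in TNP against MGNP include Col2a1 and Col10a1, so that count is a description too. Acan, Matn1, Matn3 and Hapln1 were below the filter in both comparisons, and Matn4 and Prg4 fell in TNP. Sox9, the transcription factor of cartilage and of mammary epithelium, rose in both but was highest in MGWT, at 5719 to 6449. Between MGN and MGWT 5 of 9 cartilage genes were lower and 0 higher (17.9% and 19.1% of all genes), with Sox9 at -4.35 (SE 0.25), Matn4 at -3.38 (SE 0.28) and Col2a1 at -3.18 (SE 0.81).

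**Figure D5:**
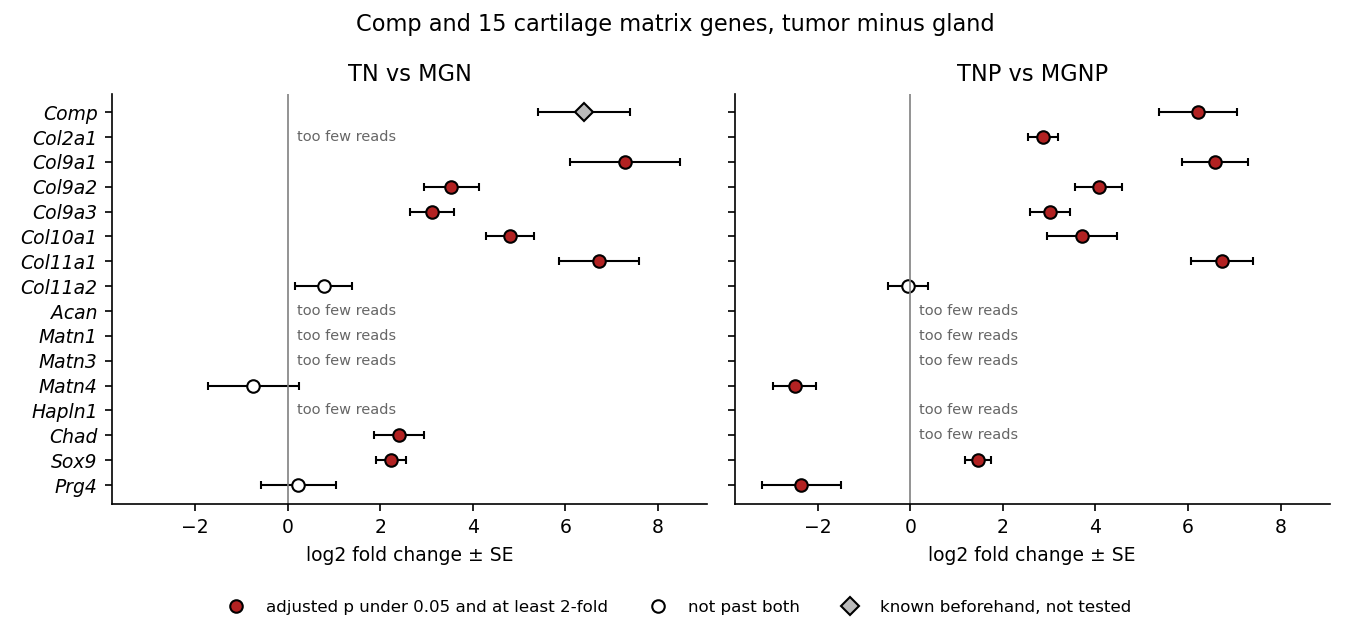
Log2 fold change with its standard error of Comp and 15 cartilage matrix genes, tumor minus gland, for TN against MGN and TNP against MGNP. Filled circles are called, open circles are not, the grey diamond was known beforehand, and genes under the filter are marked as having too few reads. Comp, Col9a1 and Col11a1 lie between 6.21 and 7.28 in both panels.

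The genes most like each member over the 19 libraries were sought among 18572 genes by Pearson's r of log2 values. These libraries share tissue, genotype and depth within groups, so the values are a description. Among the genes closest to Thbs1 were Usp6nl (r = 0.94) and App (0.93), whose medians were likewise lowest in MGN and MGNP. Thbs2 was closest to Srpx2 (0.93), Mrc1 (0.93) and Fcgr2b (0.93), of which Mrc1 and Fcgr2b are macrophage genes. Thbs3 was closest to the stromal genes Serpinf1 (0.97), Serping1 (0.97) and Pcolce (0.97), the procollagen processing enhancer. Thbs4 had the weakest neighbours, Adipor1 (0.88), Gm15816 (0.86), an antisense gene whose reads cannot be told from its partner's without strand, and Ramp1 (0.86). Comp was closest to Tesc (0.97), which had medians of 3897 normalized counts in TN and 1851 in TNP against 43.8 to 55.1 in the gland groups, to Abca3 (0.96) and to Ddb1 (0.95). The order depended on the measure. By Spearman's rank correlation Tesc was in place 164 and Ddb1 in place 64 for Comp, Pcolce in place 136 for Thbs3, and Srpx2, Mrc1 and Fcgr2b in places 20, 17 and 12 for Thbs2. Usp6nl for Thbs1 and Abca3 for Comp were in place 1.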

How the data were processed

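Whole glands and tumors were profiled by paired-end RNA-seq. The authors aligned reads with TopHat2 2.1.1 and Bowtie2 to GRCm38 and deposited a signal table of counts per gene divided by DESeq2 size factors. The counter, its annotation and its strand setting are not given in the sources used here. Whole reads were recovered from the table (within 0.05 reads), giving 20899152 to 62645459 per library. Identifiers were matched to GENCODE vM21 (98.2%, with 849 of 46078 unmatched).

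Genes with at least 10 normalized counts in as many libraries as the smaller group were tested with limma 3.58.1 (R 4.3.3) on log2(normalized count + 1), fitted on the groups compared, with Benjamini-Hochberg adjustment over all genes tested. Fold changes are on that scale, which understates changes of low genes. Calls needed an adjusted p below 0.05 and a change of 2-fold. edgeR 4.0.16 and DESeq2 1.42.0 on recovered reads, other pseudocounts, filters and scalings, a muscle covariate, a replicate block and leaving out each library were alternatives. The fits were tested on simulated data. Python 3.11.15 and SciPy 1.17.1 were used for the rest.

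The members and lists were chosen with earlier results of these data known. Named genes were the members, the 3 genes most like each (1 of them is not reported here), the 3 largest called changes of the receptor, matricellular and cartilage lists in TN against MGN, TNP against MGNP and MGN against MGWT, and Trp53 and Erbb2. Other genes named from the lists were chosen after their values were seen. Same-numbered libraries correlated at -0.25 to 0.29 in their deviations from the group means, so the numbers were not taken to pair libraries. TNP replicates 1 and 2 share an animal number in their names and were the most alike pair within a group (chi-square per degree of freedom 39.2, against 53.9 to 571 in the others). They differed by more than counting noise, which does not show separate animals, and were kept as 2 libraries. Nothing else states separate animals, so p-values measure the spread between these samples.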

Additional observations from a re-analysis of the deposited data

Results flagged for a closer look

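In 4 of the 20 groups of 4 libraries examined, 1 library of a family member lay far from the other 3, with a gap over range above Dixon's critical value of 0.829. For independent, normally distributed values chance gives about 1 in 20. The ratios here were taken on normalized counts without logs, which need not be normal, and the groups share libraries. The count is therefore a description and not an excess over chance. Thbs2 was 11685 normalized counts in TN replicate 3 (ratio 0.885), and Thbs3 was 545 in the same library (ratio 0.865), in which fibroblast markers were also highest among tumors. Thbs3 was 2012 in MGN replicate 2 (ratio 0.845), which had the highest fibroblast marker share of any library, 1.89%. Comp was 1055 in MGN replicate 1 (ratio 0.969), the MGN library of the Fsp-Cre genotype. The part of the marker shares or the genotype in these values was not tested.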

How the results depend on the processing

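Of the values of the members under alternatives, 820 were kept, 27 reversed, 11 passed the threshold anew, 11 no longer passed and 1 moved. Kept means the same direction and side of the threshold, except for the 2 differences known beforehand. For these, kept means a shift under the within-group standard deviation, and moved means a larger one. With the muscle covariate, genes called were 4312 for TNP against MGNP and 2168 for MGNP against MGWT, where 0 members were called and Thbs4 was -3.03, and the interaction was -0.048 for Thbs1 and 0.74 for Thbs3. In TNP against MGNP and MGNP against MGWT the muscle marker level did not overlap between the groups. It cannot be told apart from the group there. DESeq2 put 519 genes and 1 member past the threshold for MGNP against MGN, the member being Thbs4, whose difference was known beforehand and is not tested, 85 genes for TNP against TN and 327 in the interaction. The interaction was -0.079 by edgeR and -0.10 by DESeq2 for Thbs2, and 1.76 and 1.75 for Comp. With all 5 groups in 1 fit, 16 genes were called for MGNP against MGN, 26 for TNP against TN, and 2 members for MGNP against MGWT, Thbs3 and Comp being lost. Genes called for TNP against TN were 0 with a pseudocount of 0.5, a mean filter of 50, edgeR, the replicate block, or TNP replicates 1 and 2 averaged. Without a fold threshold 11241 genes were called for MGN against MGWT. The cause of these changes was not tested.

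Leaving out 1 library gave 0 to 318 genes for MGNP against MGN (the most without MGNP replicate 3), 0 to 52 for TNP against TN (without TN replicate 1), 0 to 194 for the interaction (without MGNP replicate 3) and 1 to 3 members for TN against MGWT (1 without MGWT replicate 1). Log2 fold changes then ran from -0.59 to 0.061 for Thbs3 in MGNP against MGN. In TNP against TN they ran from -0.82 to 0.18 for Thbs1, -0.78 to 0.12 for Thbs2, -0.82 to 0.089 for Thbs3 and -0.80 to 0.34 for Thbs4. Against MGWT they ran from -0.54 to 0.10 for Thbs4 and -0.77 to 0.77 for Comp in MGN, and -0.80 to 0.072 for Thbs1 in TN. The interaction ran from -0.081 to 0.92 for Thbs1, -0.018 to 0.88 for Thbs2, -0.55 to 0.45 for Thbs3 and -1.26 to 0.68 for Comp. With the replicate block, 3 of the 4 members tested were called for TN against MGN and 3 of 5 for TNP against MGNP, and Comp in MGNP against MGWT (-1.28) was lost. An exact two-sided permutation test cannot go below 0.0286 in these designs, and 18 of 38 tests of single members reached it (adjusted p = 0.0603). Depth limits Comp in MGNP, at 24 to 42 reads, and Thbs4 in MGN, at 35 to 53 reads.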
